A study of Mus musculus with 11 samples.

Results

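Adding Jagged-1 (Jag1) on OP9 stroma to cultures that already held TGFb and IL-34 was examined by setting 3 TGFb/IL-34/Jag1 samples against 2 TGFb/IL-34 samples. The cells were CD11b-low EpCAM+ cells sorted on day 6 from cultures of mouse bone marrow monocytes, and their RNA was sequenced in bulk. Genes with a normalized count of at least 10 in at least 2 of the 11 samples of the series were taken, 13095 of 21860 in the table. Collagens and other genes of fibroblastic stroma are described apart from the genes of the monocyte lineage. Both groups received GM-CSF (20 ng/ml), TGFb (5 ng/ml) and IL-34 (8 µg/ml), written in the labels as GMCSF+TGFb+IL34, and one of them also Jag1. The remaining samples held the Ahr ligand FICZ (TGFb/IL-34/FICZ, n = 2, and TGFb/IL-34/Jag1/FICZ, n = 3) or GM-CSF and Jag1 alone (n = 1), and entered the fit for the estimate of the spread.

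Jag1 was presented by OP9 cells, a mouse bone marrow stromal line made to carry the ligand. The labels give every sample as monocytes cultured with OP9, while the protocols describe monocytes plated without OP9 as well as monocytes seeded onto it, at a different density. Jag1 and the presence of stroma therefore cannot be told apart in this comparison. The sample descriptions begin with a code that a table of the series names the experiment, and the replicates of each group differ in it. It ties replicates 1 and 2 of TGFb/IL-34 to replicates 2 and 3 of TGFb/IL-34/Jag1, while that table ties replicate 1 of TGFb/IL-34 to replicate 1 of TGFb/IL-34/Jag1. Nothing in the labels says that experiments used separate animals, so the p-values measure the spread between these samples, which may be technical. The sort chose cells by the proteins of Itgam (CD11b) and Epcam, so the levels of those genes are no independent result, although both stay in the fit and in the counts of their lists. Itgam transcript was at 3959.6 and 4628 without Jag1 and 4862, 9886 and 19741 with it.

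Langerhans cells are the phagocytes of the epidermis. They depend on TGFb, which acts through Smad proteins, and on IL-34, a ligand of the receptor Csf1r, and they attach to keratinocytes through EpCAM, E-cadherin and claudin-1. Notch receptors are cut upon contact with a Jagged or Delta ligand on a neighbouring cell, and the freed intracellular part joins the DNA-binding protein Rbpj to switch on its targets. Langerhans cells also carry Ahr, a receptor for small aromatic ligands, which with its partner Arnt drives cytochrome P450 genes.

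The totals of the 5 samples were 21310400 to 23393500 normalized counts, with 1 read worth 0.95 to 1.14 normalized counts, so that 3 reads stood for 2.85 to 3.41. Correlations between samples (Pearson's r of the log2 values over the tested genes, which are not independent) were 0.963 to 0.980 within groups and 0.920 to 0.942 between them. The median SD between replicates was 0.115 on the log2 scale in TGFb/IL-34 and 0.254 in TGFb/IL-34/Jag1. Of the markers of Langerhans cells (Cd207, Epcam, Cldn1, Cdh1, Cd24a, Mfge8) all 6 were detected, with summed levels of 161192 to 162919 normalized counts without Jag1 and 312903 to 325185 with it, of which Mfge8 alone held 121691 to 124389 and 260985 to 275951. Epcam was the 1 of the 6 that was called, and Cdh1 and Cd24a had log2 fold changes of −0.35 and −0.25. Of the 6 markers of stroma Col1a1, Col1a2, Col3a1 and Bgn were called higher, with a sum over the 6 of 7.58 to 21.1 without Jag1 and 301 to 817 with it, while Dcn stood at 0 in all 5 samples. The keratinocyte genes Krt5 and Krt14 stood at 0 too, T cell markers summed to at most 4.95 and B cell markers to at most 8.84. The sum of Kit, Cpa3 and Mcpt8, markers of mast cells and basophils, was 1666 to 2139 without Jag1 and 1128 to 2434 with it, while Fcer1a stood at 0.

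With Jag1 346 genes were higher and 518 lower, together 864 of 13095 (limma on log2(value + 1), 5 group means over all 11 samples, Benjamini-Hochberg adjusted p under 0.05). These are 6.60% of the genes tested, 2.64% higher and 3.96% lower, and every log2 fold change given is a difference of group means on that scale, which makes changes of genes with few reads look smaller. Counts of the gene lists below are to be read beside the shares over all genes. At an unadjusted p under 0.05 there were 2486 genes. The median log2 fold change over all tested genes was −0.00409. The groups did not overlap in any of the 864 genes, and they did not overlap in 46.6% of all tested genes, 23.7% higher and 22.8% lower, so that a lack of overlap alone is common with 3 samples against 2. For a called gene, a statement below that the groups were apart therefore adds nothing to the call. More than 4-fold differences were found in 156 of the higher and 263 of the lower genes, and more than 16-fold ones in 51 and 37. A further 343 genes differed more than 4-fold without passing the test. The share called was 3.41% among genes with a mean of up to 10 over the 5 samples, 9.53% between 10 and 100, and 5.82% to 6.47% above that.

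Left out in turn, either TGFb/IL-34 sample lowered the number of calls most, to 307 without replicate 1 (113 higher, 194 lower) and to 195 without replicate 2 (84 higher, 111 lower). Without replicates 1, 2 and 3 of TGFb/IL-34/Jag1 the numbers were 565, 714 and 624. In all 5 of these fits 172 genes passed, 68 higher and 104 lower. With weights per sample the number was 2627, without the TGFb/IL-34/FICZ samples in the fit 2160, and against a minimum of 2-fold 175. The TGFb/IL-34/FICZ samples, which had the lowest of these weights, thus entered the test of every gene through the shared spread, and a gene that was not called here may pass without them. Blocked by the code in the descriptions 753 genes passed, and 1037 by the one in the authors' table. Below, the library whose absence ended a call is named with the adjusted p of that fit, and counts without each sample in turn are in the order of replicates 1 and 2 of TGFb/IL-34 and 1, 2 and 3 of TGFb/IL-34/Jag1. A fit without 1 of the TGFb/IL-34 samples leaves 1 sample in that group, which by itself makes fewer genes pass. A call lost in such a fit therefore does not show that the result rests on the sample left out. In bulk samples, a lower level may mean fewer cells of a type or less RNA per cell, and these cannot be told apart.

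**Figure D1:**
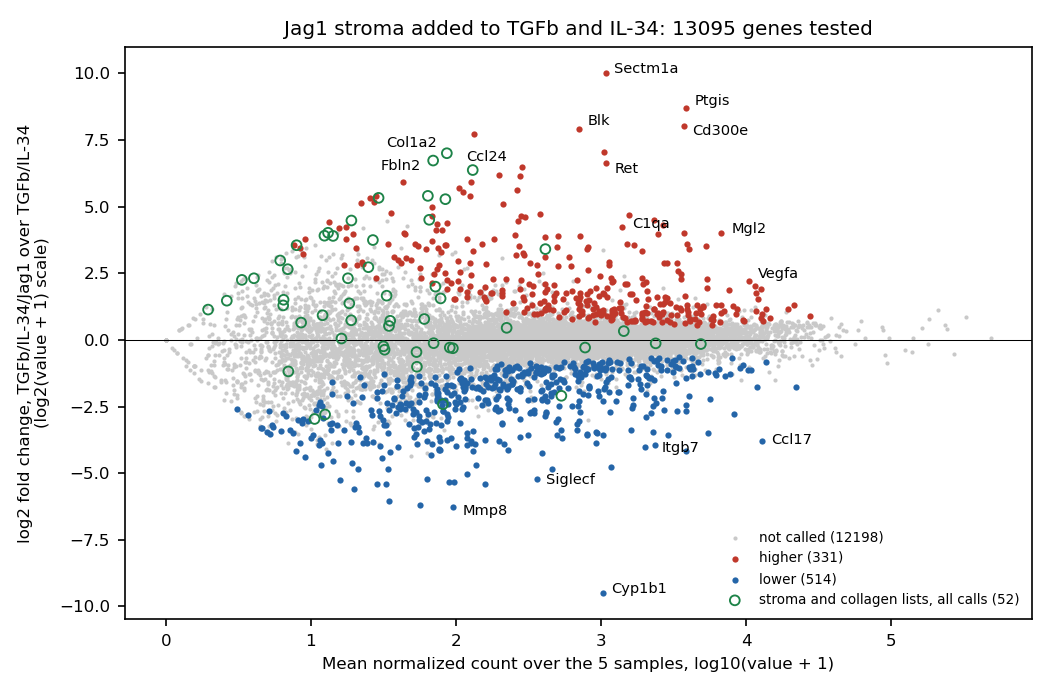
Each point is 1 of the 13095 tested genes, with its mean normalized count over the 5 samples on the x axis, as log10(value + 1), and the log2 fold change, TGFb/IL-34/Jag1 over TGFb/IL-34, on the y axis. Red points are genes called higher and blue points genes called lower outside the stroma and collagen lists, whose 52 tested genes are drawn as green rings whether called or not, and calls lie at most levels of expression.

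Of the 37 tested stromal genes, 13 rose and 2 fell, with a median log2 fold change of 1.51, and of 23 tested collagen genes 9 rose and 2 fell, with a median of 1.66. Col1a1, the alpha chain that forms type I collagen with Col1a2, stood at 3.84 and 0 normalized counts in TGFb/IL-34 and 191, 369 and 84.1 in TGFb/IL-34/Jag1 (log2 fold change 6.37, SE 0.89, adjusted p 0.00253). Col1a2 was at 0 and 0 without Jag1 and 131, 229 and 69.1 with it, at least 49.9-fold higher when 3 reads in each library are taken as the floor (adjusted p 0.000533). Fbln2, a matrix protein that binds elastic fibres, was at 0 and 0 without Jag1 and 115, 169 and 59.5 with it, at least 40.1-fold higher (adjusted p 0.00038). These matrix genes were thus at or near 0 reads in both samples without Jag1. Type VI collagen, which forms beaded filaments around cells, was represented by Col6a3 at 1.43 and 3.36 without Jag1 and 114, 186 and 17.9 with it (log2 fold change 4.51, adjusted p 0.0313). The small proteoglycan Bgn stood at 10.9 and 0 without Jag1 and 117, 176 and 114 with it (log2 fold change 5.28, adjusted p 0.0187). Serpinh1, a chaperone of collagen folding that many cell types carry, was at 56.6 and 62.0 without Jag1 and 492, 759.9 and 694 with it (log2 fold change 3.41, adjusted p 0.0185).

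The stromal rises were highest in replicate 2 of TGFb/IL-34/Jag1 for Col1a1 and Col1a2. Col2a1, the collagen of cartilage, rose too, with 53.2, 184 and 75.1 with Jag1 against 0 and 3.65 without (log2 fold change 5.40, adjusted p 0.00328). Among the 4 genes of the lists that fell, Thy1, a surface protein of fibroblasts and T cells, was at 789.5 and 1185 without Jag1 and 177, 284 and 228 with it (log2 fold change −2.10, adjusted p 0.0175), and Col4a2, a basement membrane collagen, at 131 and 177 without Jag1 and 16.9, 54.5 and 23.1 with it (log2 fold change −2.41, adjusted p 0.0469). Col6a3 did not pass without either replicate of TGFb/IL-34 or replicate 1 or 2 of TGFb/IL-34/Jag1 (adjusted p 0.0912 to 0.22), nor Thy1 and Col4a2 without either replicate of TGFb/IL-34 or replicate 1 or 3 of TGFb/IL-34/Jag1 (adjusted p 0.0507 to 0.337). Serpinh1 did not pass without either replicate of TGFb/IL-34 or replicate 2 or 3 of TGFb/IL-34/Jag1 (adjusted p 0.0562 to 0.146), nor Bgn without replicate 2 of TGFb/IL-34 or any replicate of TGFb/IL-34/Jag1 (adjusted p 0.0507 to 0.212). Nor did Col4a2 pass when blocked by the code in the description (adjusted p 0.0504). Col6a3 did not pass when blocked by the code in the authors' table (adjusted p 0.0586). The count of stromal genes that rose was 5 and 3 without replicate 1 or 2 of TGFb/IL-34, and 8, 5 and 8 without replicate 1, 2 or 3 of TGFb/IL-34/Jag1. For collagen genes the same counts were 4, 3, 6, 5 and 7.

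The 15 genes of the 2 lists that rose summed to 134 and 130.1 normalized counts in TGFb/IL-34 and to 1625, 2503 and 1437 in TGFb/IL-34/Jag1. They were taken by their calls in this comparison, so the separation of these 5 samples follows from the choice and is no result. These sums were 0.000616% and 0.000610% of the total against 0.00695%, 0.0111% and 0.00623%. No single one of the 15 exceeded 62.0 normalized counts without Jag1, and 4 of them stood at 0 in both samples. The full stroma list of 57 genes summed to 8958 and 11479.7 against 12948, 12500 and 7624, where the groups overlapped. That list holds genes that myeloid cells carry as well. The sum of the 15 genes was 264 and 119.7 in TGFb/IL-34/FICZ, 1133, 2523 and 6623 in TGFb/IL-34/Jag1/FICZ and 844 in the sample with Jag1 and GM-CSF alone. Outside the 5 samples compared, it was thus higher in each group with Jag1 than in TGFb/IL-34/FICZ. Whether stromal cells in the sorted material have a part in the rises of other genes was not tested.

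**Figure D2:**
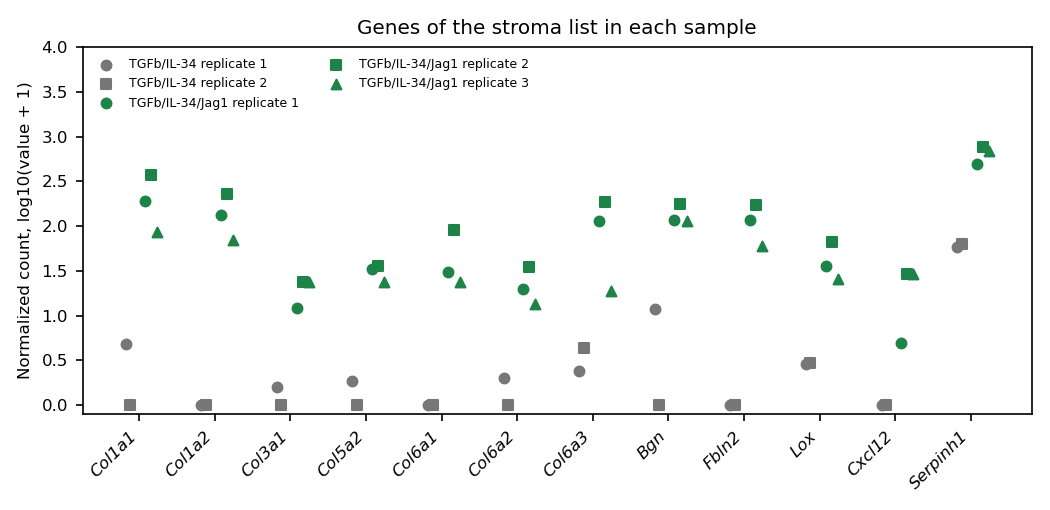
Normalized counts, as log10(value + 1), of 12 stromal and collagen genes called higher, with 1 point per sample for TGFb/IL-34 and TGFb/IL-34/Jag1. The points of TGFb/IL-34/Jag1 lie above those of TGFb/IL-34 in every gene shown, as in all genes called higher. Of those shown, 4 genes stood at 0 in both TGFb/IL-34 samples.

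Outside the stromal lists 331 genes rose. The largest rise was that of Sectm1a (ENSMUSG00000025165, chromosome 11, 120958233 to 120972046), a relative of the CD7 ligand SECTM1, at 1.98 and 0 normalized counts in TGFb/IL-34 and 1981, 1804 and 1589 in TGFb/IL-34/Jag1 (ratio of estimated reads per unit of depth 1869.9, exact 95% counting interval 517 to 15444, resting on 2 estimated reads in the lower group, adjusted p 0.000533). Sectm1b next to it was at 0 and 0 without Jag1 and 321, 163 and 181 with it, at least 77.6-fold higher (adjusted p 9.95e-05). Both genes are close copies and reads may have been split between them. Such intervals treat estimated reads, rounded to whole numbers and pooled over replicates, as counts, so exact names the binomial method alone. They are approximate for these fractional estimates. Counting error is all that they cover, and not the spread between samples or reads shared by copies. Ptgis, prostacyclin synthase, was at 28.8 and 6.77 normalized counts in TGFb/IL-34 and 5054, 6007 and 8307 in TGFb/IL-34/Jag1 (log2 fold change 8.70, SE 0.81, adjusted p 0.000285). Cd300e, an activating receptor of monocytes, stood at 33.3 and 14.2 normalized counts in TGFb/IL-34 and 4232, 6841 and 7493 in TGFb/IL-34/Jag1 (log2 fold change 8.04, SE 0.76, adjusted p 0.000312). In both genes every sample with Jag1 was far above both without.

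Signalling genes were among the largest rises. Blk, a Src family kinase best known from B cells, was at 5.25 and 2.61 without Jag1 and 1520.1, 1033 and 948 with it (log2 fold change 7.91, SE 0.87, adjusted p 0.000676), while Cd79a of B cells stayed under 5 normalized counts. Ret, the receptor kinase for ligands of the GDNF family, was at 19.7 and 14.6 without Jag1 and 2199, 1502 and 1693 with it (log2 fold change 6.63, SE 0.37, adjusted p 2.45e-05). Trib2, a pseudokinase that marks C/EBP-alpha for degradation, was at 3.06 and 1.52 without Jag1 and 106, 209.9 and 198 with it (log2 fold change 5.69, adjusted p 0.00194). Mtss2, a protein that bends membranes and binds actin, stood at 12.6 and 11.5 without Jag1 and 1282, 1889.8 and 2053 with it (log2 fold change 7.03, adjusted p 0.00188). In these genes every replicate with Jag1 was far above both samples without. Among transcription factors, Sox7 was at 4.78 and 5.69 without Jag1 and 345, 426 and 594 with it (log2 fold change 6.16, adjusted p 0.007) and Foxj1, the regulator of motile cilia, at 3.82 and 11.4 without Jag1 and 481, 173 and 641 with it (log2 fold change 5.61, adjusted p 0.00577). Tspan9, a tetraspanin, rose with a wide spread, 74.0, 98.5 and 374 with Jag1 against 1.97 and 2.01 without (log2 fold change 5.56, adjusted p 0.0013). Ccl24, the chemokine eotaxin-2, was at 3.89 and 4.20 without Jag1 and 285, 565 and 556 with it (log2 fold change 6.47, adjusted p 4.95e-05), and Tmem26 at 0.829 and 3.28 without Jag1 and 60.0, 227 and 344 with it (log2 fold change 5.91, adjusted p 0.0174). Foxj1 did not pass without replicate 1 of TGFb/IL-34 (adjusted p 0.0764), nor Sox7 without either replicate of TGFb/IL-34 (adjusted p 0.0696 to 0.0741). Tmem26 did not pass without either replicate of TGFb/IL-34 or replicate 2 or 3 of TGFb/IL-34/Jag1 (adjusted p 0.0542 to 0.153).

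By difference of means in normalized counts the leading gene of those called was Socs3, which blocks cytokine signalling through JAK kinases, at 10760.4 and 11828 normalized counts in TGFb/IL-34 and 30471, 24878 and 29329 in TGFb/IL-34/Jag1 (log2 fold change 1.32, SE 0.25, adjusted p 0.0127). Plxnd1, a semaphorin receptor, was at 18590.4 and 17259 without Jag1 and 37045, 35082 and 29083 with it (log2 fold change 0.91, adjusted p 0.0163). Malt1, a protease that carries antigen receptor and lectin signals to NF-kB, was at 11182 and 10831 without Jag1 and 32963, 20591 and 21422 with it (log2 fold change 1.15, adjusted p 0.0335). In these abundant genes every sample with Jag1 was above both samples without. Odc1, the first enzyme of polyamine synthesis, was at 3481 and 4582 without Jag1 and 18625, 15973 and 14782 with it (log2 fold change 2.04, adjusted p 0.000325). The growth factor gene Vegfa stood at 2912 and 3344 without Jag1 and 23984, 12206 and 10371 with it (log2 fold change 2.21, adjusted p 0.00263), highest in replicate 1. Tgm2, a crosslinking transglutaminase, was at 5522 and 5714 without Jag1 and 13795, 17208 and 18373 with it (log2 fold change 1.54, adjusted p 0.0013), Snx5, a sorting nexin of endosomes, at 8043 and 7537 without Jag1 and 20201, 15548 and 17242 with it (log2 fold change 1.17, adjusted p 0.012), and 2410002F23Rik at 4675 and 4427 without Jag1 and 22485, 20739 and 11122 with it (log2 fold change 1.93, adjusted p 0.012). Socs3, Snx5 and 2410002F23Rik did not pass without either replicate of TGFb/IL-34 (adjusted p 0.0909 to 0.146), nor Plxnd1 without either replicate of TGFb/IL-34 or replicate 1 of TGFb/IL-34/Jag1 (adjusted p 0.0534 to 0.197). Malt1 did not pass without either replicate of TGFb/IL-34 or replicate 1 or 3 of TGFb/IL-34/Jag1 (adjusted p 0.0564 to 0.248). Nor did Malt1 pass when blocked by the code in the description (adjusted p 0.0736). Malt1 did not pass when blocked by the code in the authors' table (adjusted p 0.064).

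Beside the cytochrome genes described further on, the largest falls were in genes of varied function. Mmp8, the neutrophil collagenase, was at 159 and 308 normalized counts in TGFb/IL-34 and 0, 2.08 and 6.87 in TGFb/IL-34/Jag1 (log2 fold change −6.26, SE 0.73, adjusted p 0.000921). Fam20c, a kinase of secreted proteins, was at 401 and 363 without Jag1 and 7.44, 12.6 and 5.49 with it (log2 fold change −5.40, adjusted p 4.95e-05). Siglecf, a sialic acid receptor of eosinophils and alveolar macrophages, was at 865 and 873 without Jag1 and 18.8, 24.3 and 24.2 with it (log2 fold change −5.22, adjusted p 0.000828). In each of them every sample with Jag1 was far below both without. Acod1, which makes itaconate in activated macrophages, was at 893 and 1270.0 without Jag1 and 33.0, 53.1 and 27.5 with it (log2 fold change −4.83, adjusted p 0.000215). Aldh1a2, an enzyme of retinoic acid synthesis, was at 303 and 260.5 without Jag1 and 6.82, 19.8 and 2.95 with it (log2 fold change −5.03, adjusted p 0.00315). Apol7c, a gene of dendritic cells, was at 2491 and 2973 without Jag1 and 36.6, 207 and 126 with it (log2 fold change −4.77, adjusted p 0.00284), with replicate 1 lowest. Cd96, a receptor of T and NK cells, was at 48.6 and 87.5 without Jag1 and 0, 0 and 2.95 with it (ratio of estimated reads per unit of depth 64.9, exact 95% counting interval 21.8 to 319, resting on 3 estimated reads in the lower group, adjusted p 0.000996). Dnm3, a dynamin, was at 196 and 229 without Jag1 and 3.84, 1.25 and 12.1 with it (log2 fold change −5.35, adjusted p 0.000676). Chst2, a sulfotransferase, was at 92.2 and 65.4 without Jag1 and 0, 6.24 and 1.96 with it (log2 fold change −4.82, adjusted p 0.00769). Chst2 did not pass without either replicate of TGFb/IL-34 (adjusted p 0.0753 to 0.0909).

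By difference of means the chemokine Ccl17 fell most of the genes called, from 28755 and 29265 normalized counts to 1882, 2643 and 1853 (log2 fold change −3.79, SE 0.22, adjusted p 2.95e-05). Mmp12, macrophage elastase, was at 37644 and 38809 without Jag1 and 8673, 10949 and 15009 with it (log2 fold change −1.76, adjusted p 0.0222). Man2b1, a lysosomal mannosidase, was at 20099 and 20756 without Jag1 and 3953, 6759 and 8040.3 with it (log2 fold change −1.77, adjusted p 0.0112). Cfp, properdin of the complement system, was at 16391 and 17222 without Jag1 and 1437, 2312 and 4252 with it (log2 fold change −2.80, adjusted p 0.00253). In every one of these the groups were apart. Mpeg1, the pore-forming perforin-2 of macrophages, was at 11662 and 12163 without Jag1 and 563, 1038 and 2006 with it (log2 fold change −3.50, adjusted p 0.00871). Spint1, a protease inhibitor of epithelia, was at 14729.5 and 15296 without Jag1 and 4606, 7925 and 8927 with it (log2 fold change −1.13, adjusted p 0.0268), and Grn, progranulin, at 18506 and 18438 without Jag1 and 8156, 11063 and 12375 with it (log2 fold change −0.83, adjusted p 0.0327). Ly6a, the surface protein Sca-1, was at 7797 and 8879 without Jag1 and 86.5, 643 and 1735 with it (log2 fold change −4.17, adjusted p 0.023), with a wide spread in the samples with Jag1. Man2b1, Mpeg1, Spint1 and Ly6a did not pass without either replicate of TGFb/IL-34 (adjusted p 0.0755 to 0.215), nor Mmp12 and Grn without either replicate of TGFb/IL-34 or replicate 1 or 2 of TGFb/IL-34/Jag1 (adjusted p 0.0593 to 0.241). Nor did Grn pass when blocked by the code in the description (adjusted p 0.0574).

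**Figure D3:**
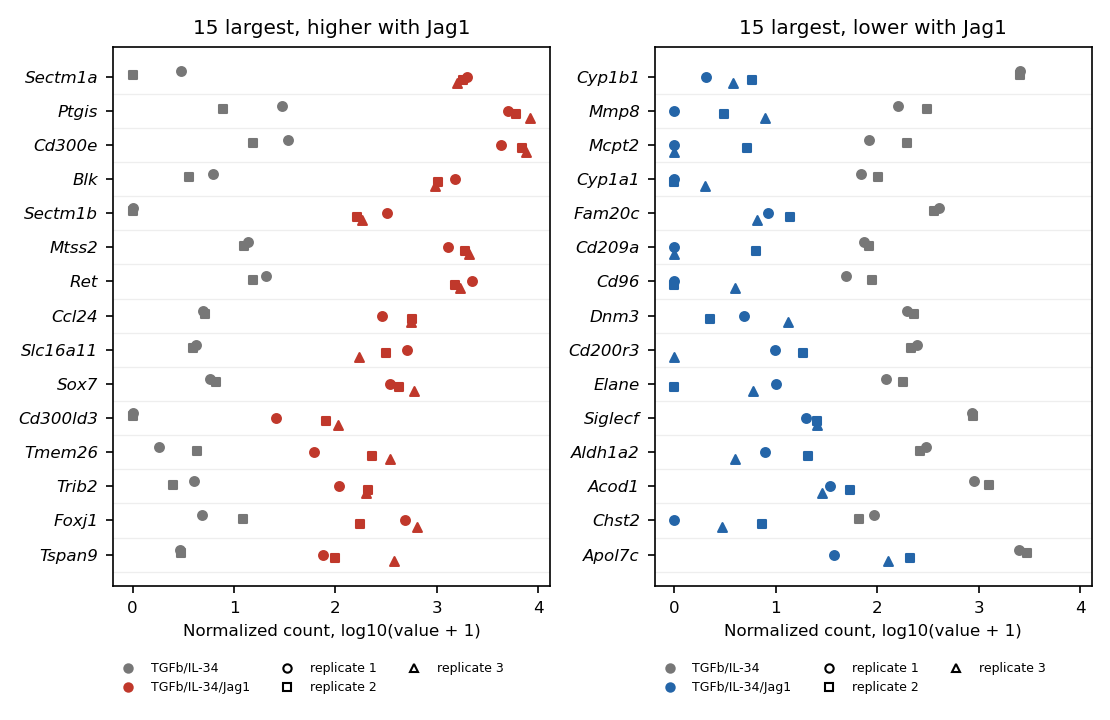
Normalized counts, as log10(value + 1), of the 15 genes with the largest log2 rises and the 15 with the largest falls outside the stromal lists, with 1 point per sample and colours for TGFb/IL-34 (2 samples) and TGFb/IL-34/Jag1 (3 samples). The points of the groups are apart in every gene shown, since only genes without overlap were taken.

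In the Notch pathway, 9 receptors and ligands were tested and 1 of them changed, with 1 at an unadjusted p under 0.05. The receptor Notch1 fell, from 5541 and 5355 normalized counts to 881, 625 and 1196 (log2 fold change −2.64, SE 0.29, adjusted p 0.000649), in every sample with Jag1. The following genes were chosen after their values were seen, for their role. Notch2 was at 4743 and 4363 without Jag1 and 2377, 2702 and 2705 with it (log2 fold change −0.81, adjusted p 0.296), and it passed with the 2 groups fitted alone, with weights per sample or without the TGFb/IL-34/FICZ samples (adjusted p 0.0131, 0.00294 and 0.00156). Rbpj, the DNA-binding partner of all Notch receptors, was at 14671 and 13443 without Jag1 and 11666, 9704 and 12038 with it (adjusted p 0.487, 0.0372 with weights per sample). The Jag1 gene itself, which the stroma carries, was at 192 and 184 without Jag1 and 286, 437 and 212 with it (log2 fold change 0.66, adjusted p 0.498). Of 10 tested Notch targets limma called none, with a median log2 fold change of 0.32, 9 above 0 and 1 below. The 1 target at an unadjusted p under 0.05 was lower. Quantile normalization, the 2 groups fitted alone and weights per sample each gave 1 target lower and none higher. So did each of the blocks and the fits without TGFb/IL-34/FICZ samples. Among the 10 targets, Hes6 stood at 844 and 715 without Jag1 and 836, 1026 and 1161 with it (log2 fold change 0.36, adjusted p 0.643). Nrarp, a feedback inhibitor, was at 57.3 and 58.9 without Jag1 and 78.5, 93.7 and 48.1 with it (log2 fold change 0.28, adjusted p 0.771). Of 37 genes of Notch processing 1 rose and none fell, 2.70% of them against 6.60% of all genes. At an unadjusted p under 0.05, 2 were higher and 4 lower. With the 2 groups fitted alone 2 rose and 2 fell. With weights per sample 2 rose and 7 fell, and without the TGFb/IL-34/FICZ samples 2 rose and 4 fell.

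In the TGFb pathway, none of the 27 tested receptors, ligands and Smads rose and 2 fell, 7.41% of them against 6.60% of all genes. Of 21 feedback genes and targets 1 rose and 2 fell, 14.3% of them. Eng, a co-receptor of the TGFb family, was at 1361 and 1047 without Jag1 and 356, 589.8 and 546 with it (log2 fold change −1.29, adjusted p 0.0117), and Inhba, which encodes the subunit of activin A, at 85.4 and 278 without Jag1 and 40.8, 44.2 and 30.5 with it (log2 fold change −1.99, adjusted p 0.0373). Id3, an inhibitor of bHLH transcription factors, fell from 934 and 1248 normalized counts to 37.3, 171 and 111 (log2 fold change −3.58, SE 0.50, adjusted p 0.00256). Smad6, an inhibitor of BMP signalling, was at 454 and 469.8 without Jag1 and 121, 125 and 144 with it (log2 fold change −1.83, adjusted p 0.00321). The target that rose was Runx3, a transcription factor that Langerhans cells need, at 8205 and 8196 without Jag1 and 15487, 15387 and 16968 with it (log2 fold change 0.96, adjusted p 0.0141). Id3 had the largest fall among the genes called in these lists. Smad6 did not pass without replicate 2 of TGFb/IL-34 (adjusted p 0.0568), nor Eng and Runx3 without either replicate of TGFb/IL-34 (adjusted p 0.064 to 0.152). Inhba did not pass without replicate 2 of TGFb/IL-34 or any replicate of TGFb/IL-34/Jag1 (adjusted p 0.0675 to 0.413). Inhba did not pass when blocked by the code in the authors' table (adjusted p 0.0639).

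Of 31 tested genes of Langerhans cell identity and adhesion, 3 rose and 1 fell, with a median log2 fold change of 0.26. Cd207, langerin, was at 157 and 154 normalized counts in TGFb/IL-34 and 1366, 1784 and 1699 in TGFb/IL-34/Jag1, a log2 fold change of 3.36 that did not pass (SE 0.98, adjusted p 0.0756), although its 3 samples with Jag1 were all far above those without. Cldn1, claudin-1 of tight junctions, was at 6561 and 6161 without Jag1 and 14946, 15498 and 14743 with it (log2 fold change 1.24, adjusted p 0.319). Mfge8, which bridges dying cells to phagocytes, was at 121691 and 124389 without Jag1 and 275951, 260985 and 262392 with it (log2 fold change 1.11, adjusted p 0.0879). For these genes the groups did not overlap, but the spread in the other groups of the fit entered the test. With the 2 groups fitted alone Cd207 (adjusted p 0.00058), Cldn1 (0.00305) and Mfge8 (0.0357) passed. Cd207 and Mfge8 also passed with weights per sample (adjusted p 0.0265 and 0.0183) and when blocked by the code in the authors' table (0.0441 and 0.0438). Cd207 passed with a pseudocount of 4 (adjusted p 0.0499) and Mfge8 without the TGFb/IL-34/FICZ samples (0.0375). Epcam, whose protein was part of the sort, is among the 3 that rose, at 5050.4 and 4706 without Jag1 and 7569, 11625 and 14376 with it. Cdh1, E-cadherin, overlapped between the groups, with 15967 and 15057 without Jag1 and 8024, 12669.7 and 17750.5 with it (adjusted p 0.668). H2-M5, a non-classical class I gene, was at 1.73 and 5.74 without Jag1 and 22.7, 158 and 179 with it (log2 fold change 4.36, adjusted p 0.034). H2-M5 did not pass without either replicate of TGFb/IL-34 or replicate 2 or 3 of TGFb/IL-34/Jag1 (adjusted p 0.104 to 0.259).

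Of 44 tested genes of tight and adherens junctions 3 rose and 5 fell. Besides Epcam of the sort, Lsr, a receptor at tricellular contacts, was at 1203 and 1459 without Jag1 and 2741, 2888 and 3363 with it (log2 fold change 1.17, adjusted p 0.00542). Dsp, desmoplakin of desmosomes, fell from 50.3 and 86.5 to 7.61, 8.38 and 14.4 normalized counts (log2 fold change −2.64, adjusted p 0.00428). Of 60 tested cytoskeletal genes 3 rose and 2 fell, 8.33% of them against 6.60% of all genes. Rhoc, a small GTPase of actin fibres, was at 1674 and 1511 without Jag1 and 9875, 7459.9 and 6544 with it (log2 fold change 2.30, adjusted p 0.00621) and S100a4, a calcium-binding protein of motile cells, at 4976 and 4462 without Jag1 and 13388, 20172 and 15628 with it (log2 fold change 1.78, adjusted p 0.0335). Rac2, the Rac GTPase of blood cells, fell, with 7932 and 6905 without Jag1 and 1592, 2054 and 1603 with it (log2 fold change −2.09, adjusted p 0.000285). Lsr did not pass without replicate 1 of TGFb/IL-34 (adjusted p 0.0854), nor Dsp without replicate 2 of TGFb/IL-34 (adjusted p 0.0856). Rhoc did not pass without either replicate of TGFb/IL-34 (adjusted p 0.0528 to 0.0851), nor S100a4 whichever of the 5 samples was dropped (adjusted p 0.0662 to 0.25). Nor did S100a4 pass when blocked by the code in the description (adjusted p 0.0745). Junction genes that fell numbered 1, 0, 4, 5 and 3 without each sample in turn.

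The Ahr targets that were called all fell. Of 15 tested targets 5 were lower and none higher, with a median log2 fold change of −0.89. Cyp1b1, a cytochrome P450 of aromatic compounds (ENSMUSG00000024087, chromosome 17, 80008966 to 80022532), was at 2570.2 and 2556 normalized counts in TGFb/IL-34 and 1.04, 4.76 and 2.80 in TGFb/IL-34/Jag1 (log2 fold change −9.50, SE 0.41, adjusted p 5.55e-06). Its relative Cyp1a1 (ENSMUSG00000032315, chromosome 9, 57595211 to 57611107) was at 68.1 and 100.1 without Jag1 and 0, 0 and 0.985 with it (ratio of estimated reads per unit of depth 239.8, exact 95% counting interval 42.5 to 9524, resting on 1 estimated read in the lower group, adjusted p 4.11e-05). Both were at 5 normalized counts or less in every sample with Jag1. Nqo1, a quinone reductase, was at 158 and 173 without Jag1 and 31.8, 11.4 and 4.93 with it (log2 fold change −3.63, adjusted p 0.00808). Tiparp, a feedback inhibitor of Ahr, was at 2755 and 2652 without Jag1 and 1176, 965 and 1614 with it (log2 fold change −1.14, adjusted p 0.013), and Ahrr, the Ahr repressor, at 4282 and 4099 without Jag1 and 2289.8, 1991 and 2539 with it (log2 fold change −0.89, adjusted p 0.0388). Nqo1 and Tiparp did not pass without either replicate of TGFb/IL-34 (adjusted p 0.0705 to 0.121), nor Ahrr whichever of the 5 samples was dropped (adjusted p 0.0599 to 0.243). Nor did Ahrr pass when blocked by the code in the description (adjusted p 0.086). Ahrr did not pass when blocked by the code in the authors' table (adjusted p 0.065). The number of targets that fell was 2 without replicate 1 and 2 without replicate 2 of TGFb/IL-34. Ahr itself, chosen after its value was seen, was at 5561 and 5170.4 without Jag1 and 8693, 8262 and 11356 with it (log2 fold change 0.80, adjusted p 0.367), with an adjusted p of 0.0366 for the 2 groups alone, 0.034 with weights per sample and 0.0404 without the TGFb/IL-34/FICZ samples. Of 13 tested genes of the Ahr pathway limma called none, with 1 at an unadjusted p under 0.05.

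Below, the 250 bases before the start of the canonical transcript are given for the 2 cytochrome genes, which were among the largest falls, with capitals at each GCGTG or its reverse complement, the core that the Ahr and Arnt pair binds. For comparison the same stretch follows for Cd300e, a leading rise, with capitals at TGGGAA or its reverse complement, the core that Rbpj binds. All are GRCm39, 5′ to 3′ on the strand of the gene, with starts from GENCODE vM39.
Cyp1a1, chr9:57603892-57604141, plus strand: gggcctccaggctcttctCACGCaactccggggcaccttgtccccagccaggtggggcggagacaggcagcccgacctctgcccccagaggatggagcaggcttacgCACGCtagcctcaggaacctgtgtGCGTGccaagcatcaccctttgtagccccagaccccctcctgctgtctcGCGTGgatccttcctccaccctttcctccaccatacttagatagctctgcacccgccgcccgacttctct
Cyp1b1, chr17:80022533-80022782, minus strand: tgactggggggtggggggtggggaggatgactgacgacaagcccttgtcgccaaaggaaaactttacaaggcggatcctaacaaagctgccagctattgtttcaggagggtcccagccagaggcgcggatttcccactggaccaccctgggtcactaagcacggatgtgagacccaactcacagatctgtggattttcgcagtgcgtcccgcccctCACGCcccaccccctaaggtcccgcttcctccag
Cd300e, chr11:114957501-114957750, minus strand: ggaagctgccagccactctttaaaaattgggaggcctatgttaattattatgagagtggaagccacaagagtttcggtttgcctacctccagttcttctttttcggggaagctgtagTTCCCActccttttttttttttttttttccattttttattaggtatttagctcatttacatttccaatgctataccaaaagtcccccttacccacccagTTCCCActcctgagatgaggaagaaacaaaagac

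The Cyp1a1 stretch held 4 matches to GCGTG and that of Cyp1b1 held 1. On either strand GCGTG was found in 40.0% of the 13070 promoters of this length, in 32.9% of those of genes that rose and in 33.2% of those of genes that fell, and 4 or more matches in 1.21% of all. TGGGAA occurred at 2 places before Cd300e. It was found in 21.9% of all promoters, in 26.6% of those of genes that rose and in 22.2% of those of genes that fell. A match is a description of the letters and shows no binding.

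Among genes of classical monocytes, falls outnumbered rises. Of 25 tested genes, 1 rose and 7 fell, with a median log2 fold change of −0.91. Ly6c2, the surface marker of these monocytes, was at 177 and 436 normalized counts in TGFb/IL-34 and 15.3, 15 and 23.6 in TGFb/IL-34/Jag1 (log2 fold change −3.91, SE 0.40, adjusted p 0.000446). Ccr2, the chemokine receptor that brings monocytes out of the marrow, was at 318 and 253 without Jag1 and 24.2, 15.4 and 17.1 with it (log2 fold change −3.86, adjusted p 0.00253). Lyz2, lysozyme, was at 4315 and 8381 without Jag1 and 434, 929.6 and 327 with it (log2 fold change −3.56, adjusted p 0.00109). In all 3 the samples with Jag1 were far below both without. Plac8 was at 303 and 586 without Jag1 and 46.3, 108 and 97.2 with it (log2 fold change −2.41, adjusted p 0.0039), Chil3, a chitinase-like protein, at 751 and 2262 without Jag1 and 85.0, 106 and 207 with it (log2 fold change −3.39, adjusted p 0.0158), and Ifitm6, an interferon-induced transmembrane protein, at 573 and 640.0 without Jag1 and 49.2, 24.4 and 87.0 with it (log2 fold change −3.65, adjusted p 0.00184). Plac8 did not pass without replicate 2 of TGFb/IL-34 (adjusted p 0.0689), nor Chil3 without replicate 2 of TGFb/IL-34 or replicate 1 of TGFb/IL-34/Jag1 (adjusted p 0.061 to 0.208). The number that fell was 8, 5, 8, 7 and 7 without each of the 5 samples in turn. Of 23 tested genes of non-classical monocytes, which patrol vessels, 2 rose and 1 fell. Cd300e rose as given above and Treml4 fell, with 241 and 331 without Jag1 and 14.6, 21.1 and 23.4 with it (log2 fold change −3.80, adjusted p 0.000747).

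Macrophage genes moved in both directions. Of 34 tested genes, 5 rose and 9 fell, with a median log2 fold change of −1.08. C1qa, which with C1qb and C1qc makes the complement protein C1q, was at 353 and 329.6 normalized counts in TGFb/IL-34 and 3135, 5958 and 8988 in TGFb/IL-34/Jag1 (log2 fold change 4.01, SE 0.56, adjusted p 0.00249). C1qb was at 669.8 and 641 without Jag1 and 3174, 5342 and 6996 with it (log2 fold change 2.90, adjusted p 0.00464) and C1qc at 626 and 529 without Jag1 and 4155, 6479 and 8463 with it (log2 fold change 3.41, adjusted p 0.00428). In all 3 chains replicate 1 was the lowest of the samples with Jag1, and still above both without. Mertk, a receptor for dying cells, was at 81.6 and 114 without Jag1 and 439, 620.3 and 596 with it (log2 fold change 2.49, adjusted p 0.00319) and its relative Tyro3 at 149.7 and 80.4 without Jag1 and 870.0, 776 and 632 with it (log2 fold change 2.77, adjusted p 0.00173). C1qb and C1qc did not pass without replicate 2 of TGFb/IL-34 (adjusted p 0.0631 to 0.0633). The number of macrophage genes that rose was 2 without replicate 2 of TGFb/IL-34 and 5 or 6 in the other 4 fits.

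Other macrophage genes fell. Stab1, a scavenger receptor, was at 456 and 513 without Jag1 and 37.4, 18.7 and 43.2 with it (log2 fold change −3.91, adjusted p 0.000743) and the scavenger receptor Msr1 at 632 and 668 without Jag1 and 157, 135 and 125 with it (log2 fold change −2.22, adjusted p 0.000936). Gpnmb, a glycoprotein of lipid-laden macrophages, was at 3896 and 5138 without Jag1 and 750.0, 797 and 505 with it (log2 fold change −2.74, adjusted p 0.000554). The C5a receptor C5ar1 was at 165 and 373 without Jag1 and 6.42, 13.4 and 37.7 with it (log2 fold change −3.96, adjusted p 0.00541). None of these overlapped between the groups. Adgre1, the antigen F4/80, was at 16709 and 15328 without Jag1 and 6666, 6657 and 8771 with it (log2 fold change −1.13, adjusted p 0.0388), Cd68 at 634 and 639 without Jag1 and 322, 314 and 244 with it (log2 fold change −1.13, adjusted p 0.0165) and the high-affinity IgG receptor Fcgr1 at 138 and 140.2 without Jag1 and 8.61, 15.8 and 24.1 with it (log2 fold change −3.14, adjusted p 0.0166). Csf1r, the receptor of IL-34, chosen after its value was seen, overlapped between the groups, with 22668 and 23145 without Jag1 and 13200.0, 21274 and 31394 with it (adjusted p 0.913). C5ar1 did not pass without replicate 2 of TGFb/IL-34 (adjusted p 0.0937), nor Fcgr1 without either replicate of TGFb/IL-34 or replicate 1 of TGFb/IL-34/Jag1 (adjusted p 0.0543 to 0.155). Cd68 did not pass without either replicate of TGFb/IL-34 or replicate 3 of TGFb/IL-34/Jag1 (adjusted p 0.0515 to 0.157), nor Adgre1 whichever of the 5 samples was dropped (adjusted p 0.0516 to 0.247). Nor did Adgre1 pass when blocked by the code in the description (adjusted p 0.0749). Adgre1 did not pass when blocked by the code in the authors' table (adjusted p 0.052). The number that fell was 4 without replicate 2 and 5 without replicate 1 of TGFb/IL-34. Of 20 tested complement genes 3 rose, the C1q chains, and 2 fell, Cfp and C5ar1, and of 24 scavenger and uptake receptors 2 rose and 5 fell. Olr1, the receptor of oxidized LDL, was at 291 and 444 without Jag1 and 90.4, 59.8 and 38.5 with it (log2 fold change −2.58, adjusted p 0.00441). Olr1 did not pass without replicate 2 of TGFb/IL-34 (adjusted p 0.0821). Scavenger and uptake receptors that fell numbered 3, 2, 5, 5 and 4 without each sample in turn.

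Of 40 tested genes of dendritic cells and their maturation 1 rose and 4 fell. Mgl2, the lectin CD301b of dermal dendritic cells, rose from 1087 and 398 to 11558, 9120.0 and 11544 normalized counts (log2 fold change 4.02, SE 0.55, adjusted p 0.0022). Cd209a, a homologue of DC-SIGN, fell, with 72.8 and 81.1 without Jag1 and 0, 5.37 and 0 with it (log2 fold change −5.39, adjusted p 0.00611). Among the markers, Ccr7, the receptor of migrating dendritic cells, was at 32180.5 and 33735 without Jag1 and 44616, 42248 and 23339 with it (adjusted p 0.922), with replicate 3 of TGFb/IL-34/Jag1 below and the others above the samples without. Flt3 was at 1094 and 1160.2 without Jag1 and 475, 909 and 577 with it (log2 fold change −0.84, adjusted p 0.124) and Zbtb46 at 1364 and 1348 without Jag1 and 1690.1, 1981 and 1632 with it (log2 fold change 0.38, adjusted p 0.213). Of 21 tested genes of class II presentation 2 rose and 2 fell. H2-Ob, a chain of the H2-O modulator of peptide loading, was at 2796 and 2617 without Jag1 and 6096, 6198 and 7579 with it (log2 fold change 1.28, adjusted p 0.00809), and the protease Ctsb at 10559 and 9514 without Jag1 and 17520.2, 17671 and 17750.3 with it (log2 fold change 0.82, adjusted p 0.0128). The protease Ctsl fell, with 6192 and 5499 without Jag1 and 2742, 2858 and 2971 with it (log2 fold change −1.03, adjusted p 0.00332). Flt3 passed without replicate 2 of TGFb/IL-34/Jag1, with weights per sample and when blocked by the code in the authors' table (adjusted p 0.0383, 0.045 and 0.0132), and Zbtb46 with weights (0.0206). Ctsl did not pass without replicate 1 of TGFb/IL-34 (adjusted p 0.0601), nor Cd209a, H2-Ob and Ctsb without either replicate of TGFb/IL-34 (adjusted p 0.0598 to 0.187). The genes of dendritic cells that fell numbered 1, 1, 3, 7 and 3 without each sample in turn. Of 24 tested class I genes limma called none, with 3 at an unadjusted p under 0.05.

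Receptor families of myeloid cells shifted member by member. Of 25 tested C-type lectins 3 rose and 2 fell. Clec10a, the lectin CD301a, was at 172 and 63.9 without Jag1 and 1108, 735 and 912 with it (log2 fold change 3.10, adjusted p 0.0125) and Asgr2, a subunit of the asialoglycoprotein receptor, at 22.7 and 16.6 without Jag1 and 191, 126 and 159 with it (log2 fold change 2.95, adjusted p 0.0141). Of 12 tested Fc receptors none rose and 5 fell. Fcgr3 was at 4622 and 4044 without Jag1 and 2455, 2478 and 2690.4 with it (log2 fold change −0.77, adjusted p 0.0103), the inhibitory receptor Fcgr2b at 1352 and 1565 without Jag1 and 576, 623 and 839 with it (log2 fold change −1.12, adjusted p 0.00877) and Fcrls at 155 and 175 without Jag1 and 3.06, 41.8 and 8.80 with it (log2 fold change −3.80, adjusted p 0.0174). With the fall of Fcgr1, the tested IgG receptors that changed were thus all lower. Fcgr3 and Fcgr2b did not pass without either replicate of TGFb/IL-34 (adjusted p 0.0577 to 0.146), nor Clec10a without replicate 2 of TGFb/IL-34 or replicate 1 of TGFb/IL-34/Jag1 (adjusted p 0.0501 to 0.171). Asgr2 did not pass without either replicate of TGFb/IL-34 or replicate 1 of TGFb/IL-34/Jag1 (adjusted p 0.0534 to 0.157), nor Fcrls without either replicate of TGFb/IL-34 or replicate 3 of TGFb/IL-34/Jag1 (adjusted p 0.055 to 0.159). The number of Fc receptors that fell was 1 without replicate 1 of TGFb/IL-34 and 0 without replicate 2 of TGFb/IL-34.

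Of 47 tested CD300, TREM, Siglec and other paired receptors 4 rose and 11 fell, with a median log2 fold change of −0.68. Cd300c2, an activating member, was at 189 and 196 without Jag1 and 1889.7, 2335 and 2887 with it (log2 fold change 3.60, adjusted p 0.000157), and Cd300ld3 was at 0 and 0 without Jag1 and 24.9, 80.1 and 105 with it, at least 24.5-fold higher (adjusted p 0.00249). Cd300lf, an inhibitory member, went the other way, with 1315 and 1538 without Jag1 and 423, 405 and 435 with it (log2 fold change −1.75, adjusted p 0.000285). Within the CD300 family the direction therefore differed between members. Trem1, which amplifies inflammatory signals, was at 2053 and 2063 normalized counts in TGFb/IL-34 and 116, 176 and 303 in TGFb/IL-34/Jag1 (log2 fold change −3.48, SE 0.35, adjusted p 0.00044). Treml2 was at 7940.2 and 6985 without Jag1 and 1042, 1242 and 1936 with it (log2 fold change −2.45, adjusted p 0.000411). The CD200 receptors Cd200r1 and Cd200r4 fell, the first with 901 and 876 without Jag1 and 297, 278 and 381 with it (log2 fold change −1.49, adjusted p 0.00283) and the other with 327 and 379 without Jag1 and 42.8, 24.4 and 14.4 with it (log2 fold change −3.77, adjusted p 0.00111). The relative Cd200r3 was at 245 and 212 without Jag1 and 8.72, 17.5 and 0 with it (log2 fold change −5.34, adjusted p 0.0128). Lilrb4b, an inhibitory receptor, was at 9748 and 12666 without Jag1 and 4992, 4411 and 3837 with it (log2 fold change −1.34, adjusted p 0.00809) and its near copy Lilrb4a at 11609.6 and 14708 without Jag1 and 7740.4, 6761 and 4742 with it (log2 fold change −1.06, adjusted p 0.0315), with reads that may be shared. Lilrb4b did not pass without replicate 2 of TGFb/IL-34 (adjusted p 0.135), nor Cd200r3 without either replicate of TGFb/IL-34 (adjusted p 0.107 to 0.111). Lilrb4a did not pass without either replicate of TGFb/IL-34 or replicate 2 or 3 of TGFb/IL-34/Jag1 (adjusted p 0.0623 to 0.323). Nor did Lilrb4a pass when blocked by the code in the description (adjusted p 0.07).

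Of 19 tested chemokines 1 rose, Ccl24, and 4 fell. Besides Ccl17, Ccl6 was at 3094 and 6095 without Jag1 and 298, 471 and 133 with it (log2 fold change −4.03, adjusted p 0.00217) and Ccl9 at 654 and 1416 without Jag1 and 98.1, 199 and 74.7 with it (log2 fold change −3.07, adjusted p 0.00254), both made by myeloid cells of the mouse. Ccl5, which draws T cells, was at 2055 and 2535 without Jag1 and 413, 1041 and 465 with it (log2 fold change −1.96, adjusted p 0.012). All samples with Jag1 were below both samples without in these 4. Of 25 tested chemoattractant receptors 2 rose and 5 fell. Ptafr, the receptor of platelet-activating factor, was at 2022 and 1859 without Jag1 and 4501, 3435 and 3344 with it (log2 fold change 0.94, adjusted p 0.0112) and Ccrl2 at 36.1 and 71.6 without Jag1 and 146, 201 and 133 with it (log2 fold change 1.61, adjusted p 0.019). The leukotriene B4 receptor Ltb4r1 was at 290.0 and 326 without Jag1 and 70.4, 80.2 and 44.4 with it (log2 fold change −2.27, adjusted p 0.00645). Ccl5, Ptafr and Ltb4r1 did not pass without either replicate of TGFb/IL-34 (adjusted p 0.0545 to 0.152), nor Ccrl2 without replicate 1 of TGFb/IL-34 or replicate 2 of TGFb/IL-34/Jag1 (adjusted p 0.0594 to 0.206). Chemoattractant receptors that fell numbered 2, 1, 3, 3 and 3 without each sample in turn.

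Of 40 tested cytokines 3 rose and 7 fell. With Vegfa, Osm, oncostatin M of the IL-6 family, rose, with 566 and 733 without Jag1 and 3441, 2351 and 2692 with it (log2 fold change 2.11, adjusted p 0.00396), and Il1b was at 2155 and 3577 without Jag1 and 13974, 6029 and 12669.9 with it (log2 fold change 1.88, adjusted p 0.0338). Il1a went the other way, with 742 and 673 without Jag1 and 350.1, 302 and 389 with it (log2 fold change −1.03, adjusted p 0.036), as did Il1rn, the antagonist of both, with 3005 and 3578 without Jag1 and 675, 782 and 1464 with it (log2 fold change −1.84, adjusted p 0.00805). The IL-1 genes thus split, the beta form higher and the alpha form and the antagonist lower. Tnfsf13b, the B cell factor BAFF, was at 607 and 719 without Jag1 and 81.6, 215 and 301 with it (log2 fold change −1.92, adjusted p 0.0315) and Il16 at 564 and 499 without Jag1 and 157, 257 and 295 with it (log2 fold change −1.21, adjusted p 0.0245). Of 46 tested growth factor and cytokine receptors none rose and 2 fell, 4.35% of them against 6.60% of all genes. These were Il21r with 3301 and 3211 without Jag1 and 395, 748 and 708 with it (log2 fold change −2.45, adjusted p 0.000447) and Il2rg, the common gamma chain it works with, with 3267 and 3609 without Jag1 and 1811, 1973 and 1648 with it (log2 fold change −0.93, adjusted p 0.00541). Osm did not pass without replicate 1 of TGFb/IL-34 (adjusted p 0.056), nor Il2rg without replicate 2 of TGFb/IL-34 (adjusted p 0.103). Il1rn and Il16 did not pass without either replicate of TGFb/IL-34 (adjusted p 0.0553 to 0.198), nor Tnfsf13b without either replicate of TGFb/IL-34 or replicate 2 of TGFb/IL-34/Jag1 (adjusted p 0.0514 to 0.257). Il1b did not pass without either replicate of TGFb/IL-34 or replicate 1 or 3 of TGFb/IL-34/Jag1 (adjusted p 0.101 to 0.281), nor Il1a whichever of the 5 samples was dropped (adjusted p 0.0579 to 0.26). Nor did Il1a pass when blocked by the code in the description (adjusted p 0.0659). Il1a did not pass when blocked by the code in the authors' table (adjusted p 0.058). The cytokines that fell numbered 4 when blocked by the code in the description and 0, 0, 4, 3 and 4 without each sample in turn.

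Of 27 tested integrins and leukocyte adhesion molecules 1 rose and 6 fell. Itgb7, the beta chain that pairs with the E-cadherin-binding alpha E chain, fell from 4887 and 4995 to 252, 474 and 785 normalized counts (log2 fold change −3.44, SE 0.40, adjusted p 0.000904). Itgb2, the beta chain of CD11b and CD11c, was at 5782 and 5210.4 without Jag1 and 1711, 1821 and 1905 with it (log2 fold change −1.60, adjusted p 0.000448). Pecam1 was at 1131 and 1344 without Jag1 and 186, 235 and 250.2 with it (log2 fold change −2.47, adjusted p 8.85e-05) and Itga2b, known from platelets and progenitors, at 1924 and 2151 without Jag1 and 516, 543 and 509 with it (log2 fold change −1.96, adjusted p 0.00015). Both beta chains were lower in every sample with Jag1. Itga1, a collagen receptor chain, was at 3492 and 3469.7 without Jag1 and 205, 335 and 557 with it (log2 fold change −3.36, adjusted p 0.00779). Of 22 tested metalloproteinases and inhibitors 1 rose, Mmp13, with 10.5 and 19.9 without Jag1 and 45.5, 125 and 162 with it (log2 fold change 2.66, adjusted p 0.0263), and Mmp8 and Mmp12 fell. Mmp13 is a collagenase that stromal cells also make. Itga1 did not pass without either replicate of TGFb/IL-34 (adjusted p 0.0722 to 0.0861), nor Mmp13 without either replicate of TGFb/IL-34 or replicate 2 or 3 of TGFb/IL-34/Jag1 (adjusted p 0.0779 to 0.226).

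Of 87 tested transcription factors of myeloid cells 5 rose and 7 fell. Runx3 rose as given above. Ets1, a factor of lymphocytes and stroma, was at 101 and 113 without Jag1 and 462, 500.0 and 413 with it (log2 fold change 2.09, adjusted p 0.00106). Gata2, a factor of progenitors and mast cells, fell from 4396 and 4164 to 586, 646 and 504 normalized counts (log2 fold change −2.89, SE 0.27, adjusted p 0.000312). Cebpe, of granulocyte maturation, was at 109.7 and 203 without Jag1 and 4.54, 6.25 and 9.89 with it (log2 fold change −4.31, adjusted p 0.00018). Nfe2 was at 132 and 196 without Jag1 and 18.6, 25.9 and 29.4 with it (log2 fold change −2.68, adjusted p 0.000936) and Myb, of immature blood cells, at 118 and 216 without Jag1 and 16.6, 27.0 and 10.1 with it (log2 fold change −3.19, adjusted p 0.00557). The factors of progenitors and granulocytes in the list that were called were therefore lower. Egr2, an immediate early factor, was at 745 and 954 without Jag1 and 114, 108 and 176 with it (log2 fold change −2.69, adjusted p 0.00541). Myb and Egr2 did not pass without replicate 2 of TGFb/IL-34 (adjusted p 0.0861 to 0.0936). Transcription factors that rose numbered 2, 1, 3, 3 and 3 without each sample in turn.

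Every call among genes of granulocytes and mast cells was a fall. Of 23 tested neutrophil genes none rose and 4 fell, with a median log2 fold change of −1.21. Elane, neutrophil elastase, was at 120.2 and 176 without Jag1 and 9.07, 0 and 4.97 with it (log2 fold change −5.23, adjusted p 0.0039) and Cd177 at 67.3 and 154 without Jag1 and 6.77, 9.29 and 13.6 with it (log2 fold change −3.29, adjusted p 0.00362). Of 13 tested genes of mast cells and basophils none rose and 7 fell, with a median of −1.84. Cpa3, the carboxypeptidase of mast cell granules, was at 607 and 781 without Jag1 and 95.4, 152 and 95.7 with it (log2 fold change −2.62, adjusted p 0.000961). The proteases Mcpt1 and Mcpt2 were at 155 and 498 without Jag1 and 9.07, 19.8 and 4.96 with it and at 81.0 and 195 without Jag1 and 0, 4.17 and 0 with it (log2 fold change −4.70, adjusted p 0.00362, and log2 fold change −6.20, adjusted p 0.00257). In contrast, Kit, the receptor of stem cell factor, overlapped between the groups, with 1024 and 1313 without Jag1 and 1902, 945 and 2302 with it (adjusted p 0.525). Cyp11a1, the first enzyme of steroid synthesis, was at 757 and 927 without Jag1 and 125, 145 and 86.3 with it (log2 fold change −2.84, adjusted p 0.00018). Elane, Cd177, Mcpt1 and Mcpt2 did not pass without replicate 2 of TGFb/IL-34 (adjusted p 0.051 to 0.0702). The number of genes of this list that fell was 3 without replicate 2 of TGFb/IL-34 and 6 in the other 4 fits. The neutrophil count was 2 without replicate 2 of TGFb/IL-34.

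Lineage lists of other cells held few tested genes each. Of 8 tested genes of plasmacytoid dendritic cells 2 rose and 1 fell. Smim5, a small membrane protein, was at 4.86 and 14.1 without Jag1 and 198, 426 and 404 with it (log2 fold change 5.11, adjusted p 0.000533), Siglech at 3.28 and 5.49 without Jag1 and 30.0, 158 and 161 with it (log2 fold change 4.14, adjusted p 0.0314) and the factor Spib, which these cells need, at 293 and 401 without Jag1 and 121, 149 and 44.8 with it (log2 fold change −1.86, adjusted p 0.0296). Of 3 tested adipocyte genes Fabp4 rose, with 6.51 and 6.67 without Jag1 and 40.7, 111 and 57.2 with it (log2 fold change 3.09, adjusted p 0.0139), and Lpl, a lipase that macrophages make as well, fell, with 5161 and 3836 without Jag1 and 1139, 679 and 635 with it (log2 fold change −2.49, adjusted p 0.000533). Of 6 tested T cell and 4 tested NK cell genes limma called none, each with 0 at an unadjusted p under 0.05, and of 4 tested B cell genes only Blk passed. Spib and Fabp4 did not pass without either replicate of TGFb/IL-34 (adjusted p 0.104 to 0.277), nor Siglech without either replicate of TGFb/IL-34 or replicate 2 or 3 of TGFb/IL-34/Jag1 (adjusted p 0.1 to 0.218).

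Of 40 tested genes of prostanoids and leukotrienes 1 rose, Ptgis, and 7 fell. Tbxas1, thromboxane synthase, which uses the same precursor as Ptgis, fell from 1683 and 1233 to 327, 135 and 124 normalized counts (log2 fold change −3.02, SE 0.41, adjusted p 0.00199). Ptgir, the receptor of prostacyclin, was at 333 and 363 without Jag1 and 131, 92.6 and 70.7 with it (log2 fold change −1.86, adjusted p 0.00328). The prostaglandin E2 receptors Ptger2 and Ptger3 fell, the first with 113 and 116 without Jag1 and 21.3, 9.72 and 15.6 with it (log2 fold change −2.87, adjusted p 0.00331) and the second with 246 and 369 without Jag1 and 76.8, 100.0 and 84.7 with it (log2 fold change −1.79, adjusted p 0.00937). The enzyme of prostacyclin was thus higher while that of thromboxane and 3 prostanoid receptors were lower. Cyp4f18, which inactivates leukotriene B4, was at 389 and 637 without Jag1 and 7.49, 62.5 and 40.8 with it (log2 fold change −4.14, adjusted p 0.0077) and Pla2g7, which degrades platelet-activating factor, at 1755 and 1878 without Jag1 and 757, 639 and 579 with it (log2 fold change −1.47, adjusted p 0.00564). Ptgir, Ptger2, Ptger3 and Cyp4f18 did not pass without replicate 2 of TGFb/IL-34 (adjusted p 0.0523 to 0.157), nor Pla2g7 without either replicate of TGFb/IL-34 (adjusted p 0.0515 to 0.0838). Genes of this list that fell numbered 5, 1, 7, 8 and 7 without each sample in turn.

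Of 33 tested genes of fatty acid uptake and storage 3 rose and 2 fell. Plin2, which coats lipid droplets, was at 1920.2 and 1965 without Jag1 and 6219.7, 9485 and 7414 with it (log2 fold change 1.97, adjusted p 0.000458). Of 16 tested steroid enzymes none rose and 3 fell, among them Akr1c13, with 758 and 849.8 without Jag1 and 204, 333 and 288 with it (log2 fold change −1.57, adjusted p 0.00254). Lipid synthesis gave no call, with 7 of 39 tested genes of sterol and fatty acid synthesis at an unadjusted p under 0.05 in limma. Akr1c13 did not pass without replicate 2 of TGFb/IL-34 (adjusted p 0.0508).

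All calls among genes of the response to low oxygen were rises. Of 30 tested genes 10 rose and none fell, with a median log2 fold change of 0.79. Egln3, a prolyl hydroxylase that marks HIF for degradation, rose from 189 and 292 to 4486, 2063 and 5296 normalized counts (log2 fold change 3.96, SE 0.39, adjusted p 0.000364). Ndrg1 was at 3084 and 2531 without Jag1 and 5760.0, 7272 and 6628 with it (log2 fold change 1.22, adjusted p 0.00332), Bnip3, of mitophagy, at 698 and 559 without Jag1 and 3352, 1614 and 3989 with it (log2 fold change 2.15, adjusted p 0.00795) and Mxi1, an antagonist of Myc, at 1250.1 and 1321 without Jag1 and 3105, 2236 and 2517 with it (log2 fold change 1.01, adjusted p 0.00621). With Vegfa, every sample with Jag1 was above both without in each of these genes. Egln1 was at 1482 and 1541 without Jag1 and 3415, 2262 and 3736 with it (log2 fold change 1.02, adjusted p 0.0187) and Ak4 at 16.9 and 112 without Jag1 and 512, 218 and 610.4 with it (log2 fold change 3.18, adjusted p 0.0391). Ndrg1 did not pass without replicate 2 of TGFb/IL-34 (adjusted p 0.0753), nor Bnip3 and Mxi1 without either replicate of TGFb/IL-34 (adjusted p 0.0517 to 0.11). Ak4 did not pass without replicate 1 of TGFb/IL-34 or replicate 1 or 3 of TGFb/IL-34/Jag1 (adjusted p 0.114 to 0.336), nor Egln1 without either replicate of TGFb/IL-34 or replicate 1 or 3 of TGFb/IL-34/Jag1 (adjusted p 0.0575 to 0.156). The number that rose was 3, 4, 5, 9 and 6 without replicate 1 and 2 of TGFb/IL-34 and replicate 1, 2 and 3 of TGFb/IL-34/Jag1. Lox, a stromal matrix enzyme, is among the 10.

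Of 29 tested glycolysis genes 4 rose and 2 fell, with a median log2 fold change of 0.43. Slc16a3, an exporter of lactate, was at 1985 and 2145 without Jag1 and 4562, 3542 and 5645 with it (log2 fold change 1.12, adjusted p 0.0139). Tpi1 was at 4165 and 4411 without Jag1 and 11379, 7363 and 13643 with it (log2 fold change 1.29, adjusted p 0.0265) and Pdk1, which restrains pyruvate oxidation, at 873 and 737 without Jag1 and 2346, 1527 and 3263 with it (log2 fold change 1.50, adjusted p 0.0215). The glucose transporter Slc2a6 fell, with 4885 and 5098 without Jag1 and 1120.0, 1077 and 1072 with it (log2 fold change −2.19, adjusted p 4.11e-05), and so did the hexokinase Hk3 of myeloid cells, with 741 and 697 without Jag1 and 71.2, 178 and 263 with it (log2 fold change −2.26, adjusted p 0.0182). Slc16a3 and Hk3 did not pass without either replicate of TGFb/IL-34 (adjusted p 0.116 to 0.146), nor Tpi1 and Pdk1 without either replicate of TGFb/IL-34 or replicate 1 or 3 of TGFb/IL-34/Jag1 (adjusted p 0.0579 to 0.208). The count of those that rose was 0 without replicate 1 of TGFb/IL-34, 0 without replicate 2 of TGFb/IL-34, 2 without replicate 1 of TGFb/IL-34/Jag1 and 1 without replicate 3 of TGFb/IL-34/Jag1. Among 19 tested heat shock genes 2 rose, the near copies Hspa1a and Hspa1b, which can share reads, at 18.2 and 22.8 without Jag1 and 1025, 490.2 and 344 with it (log2 fold change 4.71, adjusted p 0.00645) and at 52.6 and 30.4 without Jag1 and 1026, 629.7 and 325 with it (log2 fold change 3.86, adjusted p 0.00455). Hspa1b did not pass without replicate 2 of TGFb/IL-34 (adjusted p 0.076), nor Hspa1a without either replicate of TGFb/IL-34 (adjusted p 0.0645 to 0.0696).

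In large housekeeping families the result depended on the samples in the fit. Of 83 tested subunits of oxidative phosphorylation limma called none, with 4 at an unadjusted p under 0.05 and a median of 0.03. None of the 13 genes encoded in mitochondria passed, 1 at an unadjusted p under 0.05. Their share of the total was 2.41% and 2.61% without Jag1 and 1.98%, 2.42% and 0.895% with it, with replicate 3 lowest. Of 84 cytosolic ribosomal proteins none passed and 3 had an unadjusted p under 0.05, while 80 had a log2 fold change above 0, with a median of 0.47. Their share of the total was 5.70 and 5.32% without Jag1 and 7.66, 6.79 and 7.12% with it, apart in the 5 samples. With the 2 groups fitted alone 15 of the 84 rose, with weights per sample 35, and without the TGFb/IL-34/FICZ samples 53. In those samples the share was 13.5% in replicate 1 and 6.11% in replicate 2. Without them 5 subunits of oxidative phosphorylation rose and 2 fell. Nor did limma call any among 30 tested genes of the unfolded protein response, with 3 at an unadjusted p under 0.05, or among 21 of iron handling, with 2.

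All calls among cell cycle genes were falls. Of 70 tested genes of mitosis and the spindle none rose and 30 fell, 67 had a log2 fold change below 0, and the median was −1.27. Top2a, the topoisomerase of dividing cells, was at 1713 and 1993 normalized counts in TGFb/IL-34 and 541, 731 and 901 in TGFb/IL-34/Jag1 (log2 fold change −1.38, SE 0.23, adjusted p 0.00557). Mki67, the proliferation antigen, was at 1283 and 1521 without Jag1 and 232, 448 and 616 with it (log2 fold change −1.80, adjusted p 0.0142), and Ccna2, cyclin A2, at 509 and 875 without Jag1 and 110.2, 223 and 247 with it (log2 fold change −1.87, adjusted p 0.0162). In each of them all samples with Jag1 were below both without. Plk1, a mitotic kinase, was at 278 and 401 without Jag1 and 111, 132 and 156 with it (log2 fold change −1.33, adjusted p 0.00877), Cdc20 at 334 and 479 without Jag1 and 100.3, 147 and 168 with it (log2 fold change −1.56, adjusted p 0.008) and Foxm1, which drives mitotic genes, at 319 and 404 without Jag1 and 27.9, 88.7 and 93.3 with it (log2 fold change −2.52, adjusted p 0.0207). Of 55 tested genes of DNA replication none rose and 10 fell, with a median of −0.55. Mcm5, of the replicative helicase, was at 769 and 869.8 without Jag1 and 100.3, 376 and 247 with it (log2 fold change −1.95, adjusted p 0.0281).

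Top2a, Ccna2, Plk1 and Cdc20 did not pass without replicate 2 of TGFb/IL-34 (adjusted p 0.0935 to 0.215), nor Mki67 and Foxm1 without either replicate of TGFb/IL-34 (adjusted p 0.0865 to 0.2). Mcm5 did not pass without either replicate of TGFb/IL-34 or replicate 3 of TGFb/IL-34/Jag1 (adjusted p 0.0564 to 0.222). The count of mitosis genes that fell was 18, 22 and 30 without replicate 1, 2 or 3 of TGFb/IL-34/Jag1. It was lower without replicate 1 or 2 of TGFb/IL-34, where 1 sample was left in that group. Blocked by the code in the description 16 mitosis genes fell and 1 rose, and with the 2 groups fitted alone 17 fell. For DNA replication the counts were 1, 8 and 2 without replicate 1, 2 or 3 of TGFb/IL-34/Jag1, and lower still without replicate 1 or 2 of TGFb/IL-34. At an unadjusted p under 0.05, 52 mitosis genes were lower and 1 was higher with all 5 samples.

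Of 68 tested interferon-stimulated genes none rose and 7 fell, 60 had a log2 fold change below 0 and the median was −0.77. Ifitm3, which blocks virus entry, fell from 10509.8 and 10657 to 2468, 1424 and 3329 normalized counts (log2 fold change −2.22, SE 0.32, adjusted p 0.0027). Usp18, which removes ISG15, was at 1318 and 1385 without Jag1 and 156, 234 and 381 with it (log2 fold change −2.48, adjusted p 0.00198), Gbp2 at 3576 and 3451 without Jag1 and 819.7, 1208 and 1334 with it (log2 fold change −1.68, adjusted p 0.00936) and the nucleic acid sensor Zbp1 at 242 and 226 without Jag1 and 41.1, 100.2 and 71.7 with it (log2 fold change −1.80, adjusted p 0.0142). Ly6a, given above, is also in this list. Gbp2 and Zbp1 did not pass without either replicate of TGFb/IL-34 (adjusted p 0.09 to 0.127). The count was 2 without replicate 1 of TGFb/IL-34 and 2 without replicate 2 of TGFb/IL-34. Of 31 tested genes of Toll-like receptors 2 rose and 3 fell, with Unc93b1, which carries endosomal Toll-like receptors, lower at 8219 and 8223 without Jag1 and 3802, 3611 and 3354 with it (log2 fold change −1.20, adjusted p 0.00109). Among 48 genes of NF-kB and the immediate early response 4 rose and 1 fell, with Nfkbia, the inhibitor of NF-kB, higher at 6815 and 7369 without Jag1 and 15810.0, 15453 and 13547 with it (log2 fold change 1.07, adjusted p 0.0281). Nfkbia did not pass whichever of the 5 samples was dropped (adjusted p 0.0522 to 0.206). Nor did Nfkbia pass when blocked by the code in the description (adjusted p 0.063). The NF-kB and immediate early genes that rose numbered 0, 1, 0, 1 and 0 without each sample in turn.

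**Figure D4:**
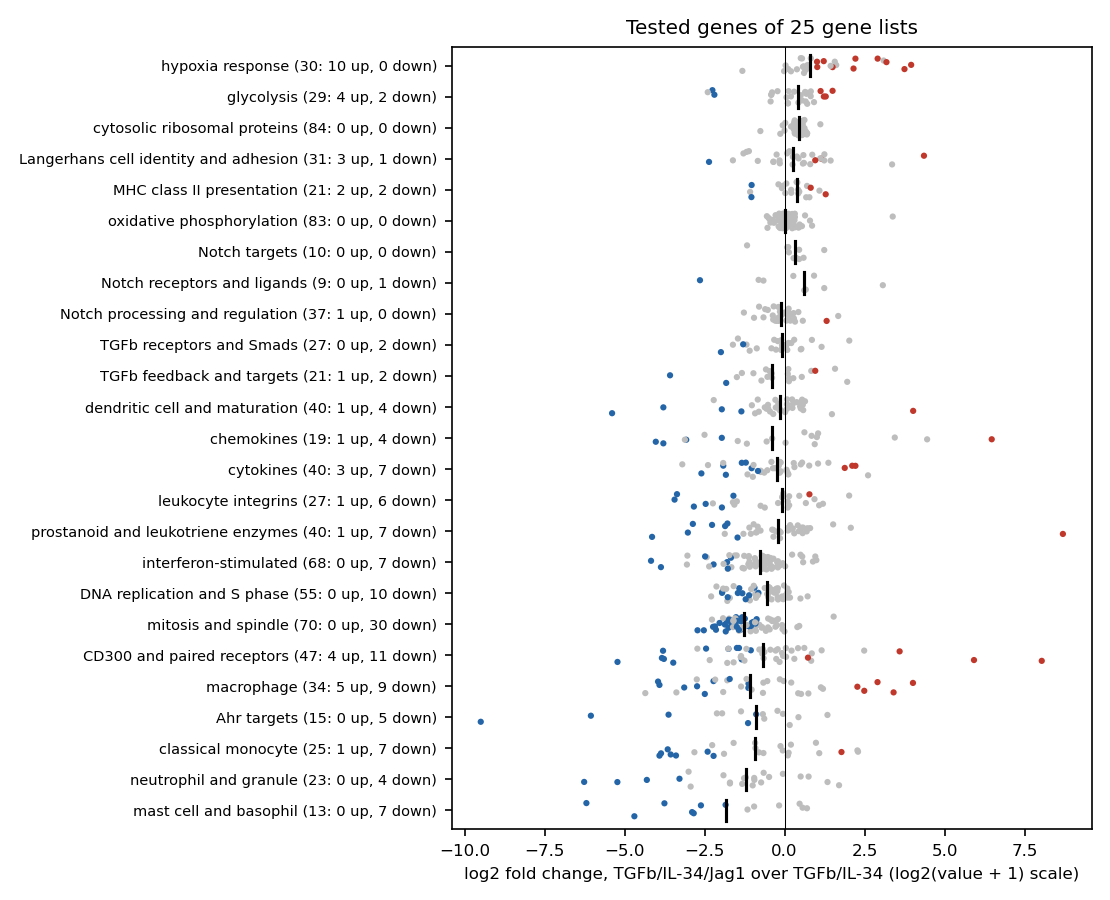
Log2 fold change with Jag1 (x axis, log2(value + 1) scale) of every tested gene in 25 gene lists (rows, with the number tested, called higher and called lower), where red points are genes called higher, blue ones called lower and grey ones not called, and black bars mark the median of each list. The medians of the hypoxia response, glycolysis and ribosomal proteins lie above 0, and those of mitosis, macrophage, neutrophil and mast cell genes lie below −1.

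Of 49 tested genes of oxidative stress 1 was higher and 7 lower. The summed level of the list was 477788 and 499532 normalized counts without Jag1 and 863555, 586382 and 605497 with it, of which Fth1, the heavy chain of ferritin, which was not called, held 213202 and 219391 and 516732, 322672 and 365331. Gclm, for the synthesis of glutathione, was at 2406 and 2564 without Jag1 and 1117, 1046 and 711 with it (log2 fold change −1.40, adjusted p 0.00323), the glutathione transferase Gstm1 at 960.0 and 1057 without Jag1 and 248, 179 and 130.4 with it (log2 fold change −2.48, adjusted p 0.00377) and Cybb, the catalytic subunit of the phagocyte oxidase, at 1779.9 and 1874 without Jag1 and 472, 461 and 734 with it (log2 fold change −1.75, adjusted p 0.00795). Of 63 tested lysosome genes 2 rose and 7 fell. Galc, which degrades galactosylceramide, was at 463 and 504 without Jag1 and 2532, 2090.1 and 1694 with it (log2 fold change 2.10, adjusted p 0.00184). Gclm and Gstm1 did not pass without replicate 2 of TGFb/IL-34 (adjusted p 0.0592 to 0.0594), nor Cybb without either replicate of TGFb/IL-34 (adjusted p 0.0721 to 0.0998). Oxidative stress genes that fell numbered 5, 2, 8, 7 and 7 and lysosome genes 1, 1, 4, 4 and 5 without each sample in turn.

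Of 210 tested solute carriers 8 rose and 11 fell, a share near that of all genes. Slc16a11, of the monocarboxylate transporters, was at 3.19 and 2.96 without Jag1 and 501, 315 and 169 with it (log2 fold change 6.20, adjusted p 0.000676). Slc7a7, which carries basic amino acids, was at 1308 and 1431 without Jag1 and 3990.3, 3171 and 3936 with it (log2 fold change 1.43, adjusted p 0.00179), and Slc7a2, a transporter of arginine, at 1516 and 1893 without Jag1 and 582, 351 and 454 with it (log2 fold change −1.90, adjusted p 0.0064), in opposite directions. Slc39a4, a zinc importer, was at 1080.0 and 1437 without Jag1 and 361, 264 and 369 with it (log2 fold change −1.92, adjusted p 0.000676). Of 31 tested purinergic genes 1 rose and 4 fell. Nt5e, CD73, which makes adenosine, fell from 1023 and 1404 to 76.0, 107 and 99.6 normalized counts (log2 fold change −3.67, adjusted p 4.11e-05), while Entpd3, an ectonucleotidase acting before it, was at 273 and 158 without Jag1 and 4303, 1723 and 2036 with it (log2 fold change 3.57, adjusted p 0.00605). The ATP receptor P2rx7 was at 113 and 158 without Jag1 and 5.41, 3.72 and 29.9 with it (log2 fold change −3.78, adjusted p 0.01). Slc7a2 and Entpd3 did not pass without replicate 2 of TGFb/IL-34 (adjusted p 0.0937 to 0.101), nor P2rx7 without either replicate of TGFb/IL-34 (adjusted p 0.067 to 0.123). Solute carriers that rose numbered 5, 4, 6, 6 and 5, those that fell 6, 4, 9, 11 and 8 and purinergic genes that fell 1, 1, 3, 3 and 2 without each sample in turn.

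Of 32 tested genes of Src and Tec kinase signalling 4 rose and 3 fell. Besides Blk, Fyn was at 3731 and 3413 without Jag1 and 5013, 5379.6 and 5458 with it (log2 fold change 0.56, adjusted p 0.0381) and Lyn at 2919 and 3009 without Jag1 and 4615, 4717 and 5131 with it (log2 fold change 0.70, adjusted p 0.0265), while Src was at 2838 and 3459.8 without Jag1 and 1835, 1854 and 1705 with it (log2 fold change −0.80, adjusted p 0.0307) and Btk, the kinase of B cells and myeloid cells, at 1900.0 and 1772 without Jag1 and 849.7, 1206 and 1025 with it (log2 fold change −0.85, adjusted p 0.0276). Among 32 semaphorin, plexin and ephrin genes 3 rose and 1 fell, with Plxna3 at 15.5 and 10.1 without Jag1 and 157, 233 and 179 with it (log2 fold change 3.79, adjusted p 0.0168). Of 24 Wnt pathway genes 1 fell, 4.17% of them against 6.60% of all genes. It was the receptor Fzd4, with 85.4 and 69.2 without Jag1 and 13.7, 19.8 and 18.6 with it (log2 fold change −2.10, adjusted p 0.0117). Ms4a6c fell among 11 tested MS4A genes, 3 of which were lower, with 392 and 500.1 without Jag1 and 18, 48.2 and 34.4 with it (log2 fold change −3.79, adjusted p 0.0167). Psat1, of serine synthesis, was at 433 and 549 without Jag1 and 109.9, 152 and 129.7 with it (log2 fold change −1.91, adjusted p 0.000747) in a list of 43 genes of amino acid metabolism with 1 higher and 3 lower. Of 28 acute-phase and antimicrobial genes none rose and 2 fell, Lyz2 and Chil3, 7.14% of them against 6.60% of all genes. Fzd4 did not pass without either replicate of TGFb/IL-34 (adjusted p 0.093 to 0.124), nor Ms4a6c without either replicate of TGFb/IL-34 or replicate 1 of TGFb/IL-34/Jag1 (adjusted p 0.0623 to 0.163). Plxna3 did not pass without either replicate of TGFb/IL-34 or replicate 2 of TGFb/IL-34/Jag1 (adjusted p 0.0527 to 0.171), nor Btk without either replicate of TGFb/IL-34 or replicate 1 or 3 of TGFb/IL-34/Jag1 (adjusted p 0.0674 to 0.214). Fyn, Lyn and Src did not pass whichever of the 5 samples was dropped (adjusted p 0.0554 to 0.366). Nor did Fyn, Src and Btk pass when blocked by the code in the description (adjusted p 0.0559 to 0.0742). Fyn did not pass when blocked by the code in the authors' table (adjusted p 0.0644). Genes of Src and Tec signalling that rose numbered 1, 1, 1, 2 and 1 without each sample in turn.

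Some genes that changed lay side by side. Among 13048 pairs of neighbouring tested genes 107 were called in the same direction and 21 in opposite ones. There were 15 runs of at least 3 neighbours called in the same direction, 8 higher and 7 lower, with 55 genes. On chromosome 11, Cd7, Sectm1b, Sectm1a and Tex19.2 rose together between 120927570 and 121009503. Cd7, the receptor that SECTM1 proteins bind, was at 89.9 and 106 without Jag1 and 2847, 2209 and 2508 with it (log2 fold change 4.67, adjusted p 4.93e-05). On the same chromosome Cd300c2, Cd300ld3, Cd300e and Rab37 rose between 114887546 and 115053074, with Rab37 at 303 and 391 without Jag1 and 1586, 1591 and 2014 with it (log2 fold change 2.32, adjusted p 0.00044), and Asgr2, Mgl2, Clec10a and Slc16a11 between 69983461 and 70107267. The C1q genes on chromosome 4 lie between 136606009 and 136626161. Of all genes tested on chromosome 11, 5.36% rose, against 2.64% of all tested genes. That was the largest share of any chromosome, with 4.09% on chromosome 12 next, and it was not tested. The runs were found with the calls in view and were not tested.

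On chromosome 7, Klk1b1, Klk1b9, Klk1b11, Klk1b26 and Klk1b27, kallikreins of close sequence that can share reads, rose between 43616175 and 43706136, with Klk1b1 at 288 and 155 without Jag1 and 3973, 5589.6 and 3398 with it (log2 fold change 4.32, adjusted p 0.000446). The longest run that fell lay on chromosome 17 between 48436215 and 48634052 and held 7 genes, among them Trem1, Trem3, Treml4 and Treml2. On chromosome 11 Heatr9, Ccl5, Ccl9 and Ccl6 fell between 83402562 and 83483913. The remaining runs were of 3 genes, among them Nuak1, Ckap4 and Tcp11l2 (higher, chromosome 10), Sgce, Peg10 and Ppp1r9a (lower, chromosome 6) and F2rl1, F2r and Iqgap2 (lower, chromosome 13). Klk1b27, Heatr9, Tcp11l2, Ppp1r9a, F2rl1 and Tex19.2 did not pass when blocked by the code in the description (adjusted p 0.0504 to 0.0802), nor Heatr9, Tex19.2 and Sgce by the one in the authors' table (0.053 to 0.0567). The genes of runs that belong to no list were chosen after their values were seen.

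**Figure D5:**
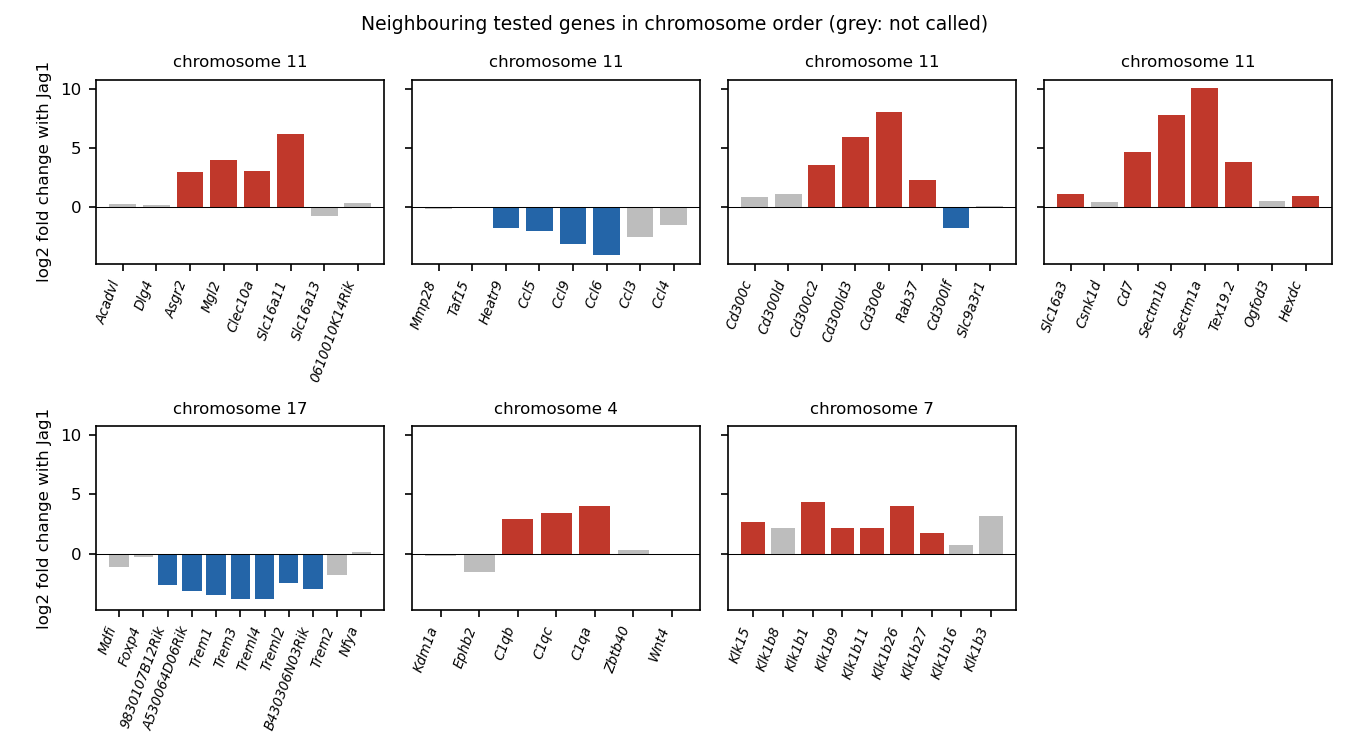
Bars give the log2 fold change with Jag1 (y axis) of neighbouring tested genes in their order along the chromosome, for 7 runs of neighbours called in the same direction with up to 2 tested genes on either side. Red bars are genes called higher, blue ones called lower and grey ones not called, and the run on chromosome 17 holds 7 genes that fell.

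The most abundant genes did not pass. Cd74, the invariant chain of class II molecules, was at 519286 and 433001 normalized counts in TGFb/IL-34 and 462235, 472696 and 545577 in TGFb/IL-34/Jag1 (log2 fold change 0.05, adjusted p 0.964), and H2-Ab1, a class II chain, at 220556 and 181376 without Jag1 and 248595, 256212 and 301740.0 with it (log2 fold change 0.42, adjusted p 0.513). Fth1, ferritin heavy chain, was at 213202 and 219391 without Jag1 and 516732, 322672 and 365331 with it (log2 fold change 0.86, adjusted p 0.327). For H2-Ab1 and Fth1 all samples with Jag1 were above both without. The mitochondrial mt-Co1 was at 311597 and 319658 without Jag1 and 292404, 316501 and 116381 with it (log2 fold change −0.52, adjusted p 0.651), lowest in replicate 3 with Jag1, and the elongation factor Eef1a1 at 195717 and 175950.0 without Jag1 and 288455, 238226 and 287815 with it (log2 fold change 0.54, adjusted p 0.375).

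The same genes were read in the cultures with FICZ, as the difference of TGFb/IL-34/Jag1/FICZ (n = 3) and TGFb/IL-34/FICZ (n = 2). These samples are not among the 5 compared, but they entered the shared spread that decided the calls. Genes that vary little within the FICZ groups were thus favoured among the calls, and the shares below are not independent of them. Of the 346 genes that rose 297 (85.8%) were also above 0 there, against 53.1% of all tested genes, with a median log2 difference of 0.68 against 0.05 over all. Of the 518 that fell 304 (58.7%) were below 0, against 46.8% of all, with a median of −0.14. All samples with Jag1 were above both without in 56.6% of the genes that rose and 19.6% of all, and below both in 32.8% of those that fell and 16.2% of all. The difference itself passed the test in 182 of 13095 genes, 1.39%. As group means with FICZ, Ptgis was at 6.89 without and 149 with Jag1, Sectm1a at 5.23 and 39.2, and Cyp1b1 at 5585 and 2749 normalized counts.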

How the data were processed

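Per the labels and methods, the authors cultured bone marrow monocytes of mice for 6 days, sorted CD11b-low EpCAM+ cells and sequenced their RNA in bulk. The signal values deposited by the authors are gene counts estimated with salmon against the Ensembl GRCm39 transcript model, summed to genes with tximport and divided by DESeq2 size factors (normalized counts). Tool versions are not given in the sources used here. As estimates these counts are fractional, and the table gave no whole reads to which a count model could be applied. The value of 1 read in each sample was estimated from 1010 genes with 1 transcript, which gave 20.6 to 23.5 M estimated reads in the 5 samples. The number of samples limits the precision.

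Tested were the 13095 of 21860 genes that reached a value of 10 in 2 or more of the 11 samples. On the log2(value + 1) scale they were fitted with limma 3.58.1 in R 4.3.3 (5 group means, 6 residual degrees of freedom, eBayes with a mean trend), with Benjamini-Hochberg adjustment over all tested genes and a threshold of 0.05. Effect, interaction and all alternatives (pseudocounts of 0.5 and 4, filters, quantile normalization, weights, blocks, a 2-fold minimum, left-out samples) used the same fit. The script was tested on simulated data in which all groups had the same spread. That test does not cover groups of unequal spread, such as TGFb/IL-34/FICZ. Nor does it cover the unequal spread of the 2 groups compared, with a median SD of 0.115 in TGFb/IL-34 and 0.254 in TGFb/IL-34/Jag1. Tables were made with Python 3.11.15, numpy 2.4.6 and pandas 2.3.3.

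Candidates by size were the called genes whose larger group mean was 50 or more and whose groups did not overlap. Of these, the 15 with the largest log2 fold change and the 10 with the largest difference of means in each direction were named. Members of the gene lists and the 5 genes of highest mean that were not called were named too. Not every list member called is named. Stromal genes came from their own lists. The members, lists and tests were chosen with earlier results of these data known. Gene positions and promoters come from GENCODE vM39 on GRCm39, which held 21676 of the 21860 gene identifiers, and 50 genes have no symbol. The 184 genes without a match have no position. A second code for each sample, held in a table of the series, differed from the description for 1 of 11 samples, and groups were taken from the labels. Trac was not analysed here, and some genes and a sequence are not reported here.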

Additional observations from a re-analysis of the deposited data

Results flagged for a closer look

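For 60 of the genes named above, the log2 fold change with Jag1 differed between cultures with and without FICZ by the interaction term of the same fit (limma, adjusted p under 0.05). Over all 13095 tested genes 182 did, 1.39%. The values are the log2 fold change with FICZ minus that without it. The effect without FICZ enters with a minus sign, so for genes called in that comparison a difference of the opposite sign is favoured by their choice and is not a result.

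The difference rests on the 2 TGFb/IL-34/FICZ samples, which stood apart from each other. Ribosomal protein genes held 13.5% of the total in replicate 1 and 6.11% in replicate 2, totals were 27845100 and 21358100 normalized counts, and both samples had a weight of 0.151, where the other 9 had 0.616 to 2.42. The description of replicate 1 also ends in a code that it shares only with replicate 1 of TGFb/IL-34/Jag1/FICZ. Without replicate 1 limma called 122 genes, 91 of them among the 182 and 38 among the 60, and without replicate 2 it called 5488, with 1 sample then assumed to vary like the other groups. With weights per sample 8 passed, 5 of them among the 60. The part of these samples in the differences was not tested.

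For the 11 genes among them that rose with Jag1 the values follow. The difference was −5.81 for Smim5, −5.60 for Cd300ld3, −5.51 for Slc16a11, −4.63 for Ret, −4.48 for Sectm1b, −3.93 for Cd7, −3.84 for Mgl2 and −3.20 for Cd300c2. It was −2.24 for Plin2, −1.69 for Odc1 and −1.11 for Ctsb.

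For the 48 genes among them that fell with Jag1 they were as follows. The difference was 8.55 for Cyp1b1, 6.28 for Elane, 5.32 for Mmp8, 5.30 for Mcpt1, 5.25 for Apol7c, 5.18 for Dnm3, 4.94 for Siglecf and 4.88 for Cd96. Next in size were 4.86 for Cebpe, 4.56 for Trem3, 4.51 for Myb, 4.41 for Cyp1a1, 4.29 for Ccr2, 4.28 for Itga1, 4.01 for Ly6c2 and 3.99 for Cd177. Further values were 3.96 for Ccl9, 3.95 for Ccl6, 3.84 for Nt5e, 3.69 for Dsp, 3.26 for Gata2, 3.15 for Thy1, 3.12 for Cyp11a1 and 3.10 for Trem1. The following values were 3.04 for Treml4, 3.03 for Olr1, 2.89 for Nfe2, 2.84 for Pecam1, 2.81 for Notch1, 2.72 for Fam20c, 2.69 for Psat1 and 2.62 for Mki67. Smaller ones were 2.13 for F2r, 2.12 for Cpa3, 2.09 for Gpnmb, 2.08 for Il21r, 2.02 for Plk1, 1.96 for Itga2b, 1.95 for Ptgir and 1.87 for Treml2. The smallest were 1.73 for Pla2g7, 1.71 for Top2a, 1.59 for Ccl17, 1.59 for Akr1c13, 1.46 for Cd300lf, 1.42 for Rac2, 1.20 for Itgb2 and 1.14 for Slc2a6. Among named genes that limma did not call with Jag1 it was 2.12 for Flt3.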

How the results depend on the processing

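With all samples and settings as reported, 864 genes passed, 346 higher and 518 lower. Another pseudocount (0.5 or 4), quantile normalization, a filter at 50, no filter and no variance trend gave 721 to 892 calls. Weights per sample gave 2627 calls (1232 higher, 1395 lower), a 2-fold minimum 175 (67 and 108), and the 2 groups fitted alone 1092 (569 and 523). Leaving the TGFb/IL-34/FICZ samples out of the fit, an alternative chosen after seeing the data, gave 2160 (1059 and 1101), and leaving out replicate 1 or 2 of them 2156 (1049 and 1107) or 2167 (1062 and 1105). Leaving out 1 of the 5 samples gave 195 to 714 calls, 84 to 249 higher and 111 to 465 lower. The difference of the Jag1 effect with and without FICZ was called in 182 genes, in 74 without a filter, 8 with weights per sample, 8 with a 2-fold minimum, 44 with the code in the sample description as a block, 122 and 5488 without replicate 1 or 2 of TGFb/IL-34/FICZ and 9 to 114 with 1 sample left out. It has no value when the 2 groups are fitted alone or the TGFb/IL-34/FICZ samples are left out. The cause of these shifts was not tested.

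Deviations from the group means over genes correlated at r = 0.0475 and 0.0417 for samples of the same replicate number, at −0.0417 and 0.0123 for those that share a code in the description, and at 0.0475 and 0.0123 for those that share one in the authors' file. With the replicate number as a block 729 genes passed (264 higher, 465 lower), and the interaction was called in 204. The code in the sample description as a block gave 753, where 18 named genes were no longer called, and the code in the authors' file, added after seeing the data, 1037, with 401 higher and 636 lower.

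Collagen genes alone summed to 1635.6 and 1477 normalized counts in TGFb/IL-34 and 2160.2, 3070.5 and 1297 in TGFb/IL-34/Jag1, against the sums of the full stroma list above. Of 215 named genes that were called, none changed direction in any setting, 83 passed in all 5 fits without 1 sample and 84 in all 15 other settings, 71 in both. Of 21 named genes that were not called 4 changed sign. Csf1r (log2 fold change −0.15) was at 0.0931 with the code in the description as a block and at −0.45 to 0.17 with 1 sample left out. Ccr7 (0.10) was at −0.00324 with that block and at −0.0694 to 0.40 with 1 sample left out. Cd74 (0.05) was at −0.12 under quantile normalization, −0.0274 with the replicate block and −0.0774 to 0.18 with 1 sample left out. H2-Ab1 (0.42) was at −0.0842 under quantile normalization.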
